A study of Homo sapiens with 12 samples.

Results

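The proteins that build the cytoskeleton of the neuron were examined in 10 genes out of the 19923 counted in each library. All 10 were found by name. The 6 intermediate filament genes were NEFL, NEFM and NEFH, INA, PRPH and NES, and the 4 microtubule genes were MAP1B, MAP2, MAPT and TUBB3. The RNA came from a pair of established human neuroblastoma lines with amplified MYCN, SK-N-BE2 and NGP, whose genotype is given as WT. Each line was kept for 6 days either with DMSO, the solvent control, or with STM2457, an inhibitor of METTL3, which methylates adenosine in messenger RNA (the m6A mark). SK-N-BE2 received STM2457 at 12 µM and NGP at 1 µM, and each of the 4 groups had 3 replicates. The comparisons ask whether the transcripts of the mature neuronal cytoskeleton changed with the inhibitor in each line.

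Neurons fill their axons with neurofilaments, ropes assembled from a light (NEFL), a medium (NEFM) and a heavy (NEFH) subunit together with alpha-internexin (INA) or, in peripheral neurons, peripherin (PRPH). Nestin (NES) is the intermediate filament of neural progenitors and is usually replaced by neurofilaments as neurons mature. Microtubules run beside these ropes and are held by MAP1B, an early axonal protein, by MAP2, the protein of dendrites, and by tau (MAPT), the protein of axons, and TUBB3 is the beta-tubulin used as a marker of neurons. Neuroblastoma arises from the sympathetic lineage of the neural crest, whose neurons carry both neurofilaments and peripherin.

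Each library held 47242379 to 58159937 counted reads. The lines were sequenced in different runs, per the file headers, so the effects of line, dose and sequencing run cannot be told apart, while the libraries of a line share a run. In a principal component analysis, component 4 (1.74% of the variance) set NGP DMSO replicate 1 apart from the other NGP controls. NGP responses that change their call or sign without it are given without it as well. So are those of PRPH, NES and MAP2, which kept their calls. The NGP responses of NEFM, NEFH, INA, MAPT and TUBB3 also kept their call or lack of one without it. Nothing in the labels says that replicates were separate cultures, so p-values measure the spread between these samples, which may be technical. The summed level of 10 adrenergic neuroblastoma markers lay between 2065 and 2782 CPM in all 12 libraries. Such a sum cannot check which line or treatment a label names. TH, a defining marker, was nearly absent from NGP (0.514 ± 0.380 CPM with DMSO, against 235 ± 30.8 CPM in SK-N-BE2; SD, n = 3). Between the DMSO groups 4 of the 10 adrenergic markers were called higher in SK-N-BE2 and 5 lower, by the edgeR test described below. The shares over all genes were 35.7% and 35.4%.

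The starts of 3 filament genes are shown, those whose promoter windows overlapped no exon of the counted genes. The responses to STM2457 had no part in that choice. Of the 10 genes, 6 had entries in the RefSeq promoter table (GRCh38.p14): INA, PRPH, NES, MAP1B, MAP2 and TUBB3. The windows below are the 250 bases before the start site, read on the gene's strand, and they overlap no exon of the counted genes. INA lies at chr10:103276888-103277137 on the plus strand, PRPH at chr12:49294897-49295146 on the plus strand and NES at chr1:156677408-156677657 on the minus strand. The PRPH window lies inside the counted span of its gene, which starts at 49293252. Capitals mark matches to the motifs searched.
INA: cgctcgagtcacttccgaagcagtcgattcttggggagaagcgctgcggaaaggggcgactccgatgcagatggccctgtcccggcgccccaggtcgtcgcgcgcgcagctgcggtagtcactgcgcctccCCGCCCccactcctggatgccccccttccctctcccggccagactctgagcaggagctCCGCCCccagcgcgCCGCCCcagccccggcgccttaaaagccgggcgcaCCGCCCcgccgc
PRPH: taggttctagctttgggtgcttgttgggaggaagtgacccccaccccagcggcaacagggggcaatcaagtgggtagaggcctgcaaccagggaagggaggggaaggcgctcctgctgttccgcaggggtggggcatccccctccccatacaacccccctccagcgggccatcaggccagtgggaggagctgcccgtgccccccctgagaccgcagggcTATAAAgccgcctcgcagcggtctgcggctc
NES: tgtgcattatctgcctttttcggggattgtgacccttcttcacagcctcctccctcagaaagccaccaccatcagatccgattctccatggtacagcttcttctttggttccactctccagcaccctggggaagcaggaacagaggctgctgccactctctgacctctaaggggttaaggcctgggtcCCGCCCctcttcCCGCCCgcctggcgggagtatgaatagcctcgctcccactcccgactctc
The 4 motifs searched on both strands were the E-box CACGTG, to which MYC family proteins bind, the TATA box TATAAA, the CCAAT box and the GC box GGGCGG. The INA window held 4 GC boxes and the NES window 2, all written as CCGCCC, and the PRPH window held 1 TATA box. None of the 3 windows held CACGTG. Among all 35116 windows in the table, 42.6% held a GC box, 10.7% a TATA box, 32% a CCAAT box and 6.34% the E-box. These matches are letters in a window and were not tested for binding.

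STM2457 changed 7 of the 10 genes in SK-N-BE2, 6 higher and 1 lower, and 6 of the 10 in NGP, 4 higher and 2 lower, at an edgeR quasi-likelihood adjusted p under 0.05. All 10 passed the filter on low counts in every fit. Calls were common in these data: in SK-N-BE2 54.7% of tested genes were called (26.9% higher and 27.8% lower) and 41.7% in NGP (19.4% higher and 22.2% lower). The counts of members are therefore read one gene at a time. NES and TUBB3 were higher in both lines, a pattern shown by 10.5% of the 12952 genes tested in both. MAP2 and MAPT rose in SK-N-BE2 but fell in NGP, a pattern of 2.72% of genes, and NEFH fell in SK-N-BE2 but rose in NGP, a pattern of 2.25%. NEFM and INA were not called in either line. In bulk RNA, fewer cells of a type and less RNA per cell cannot be told apart.

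**Figure D1:**
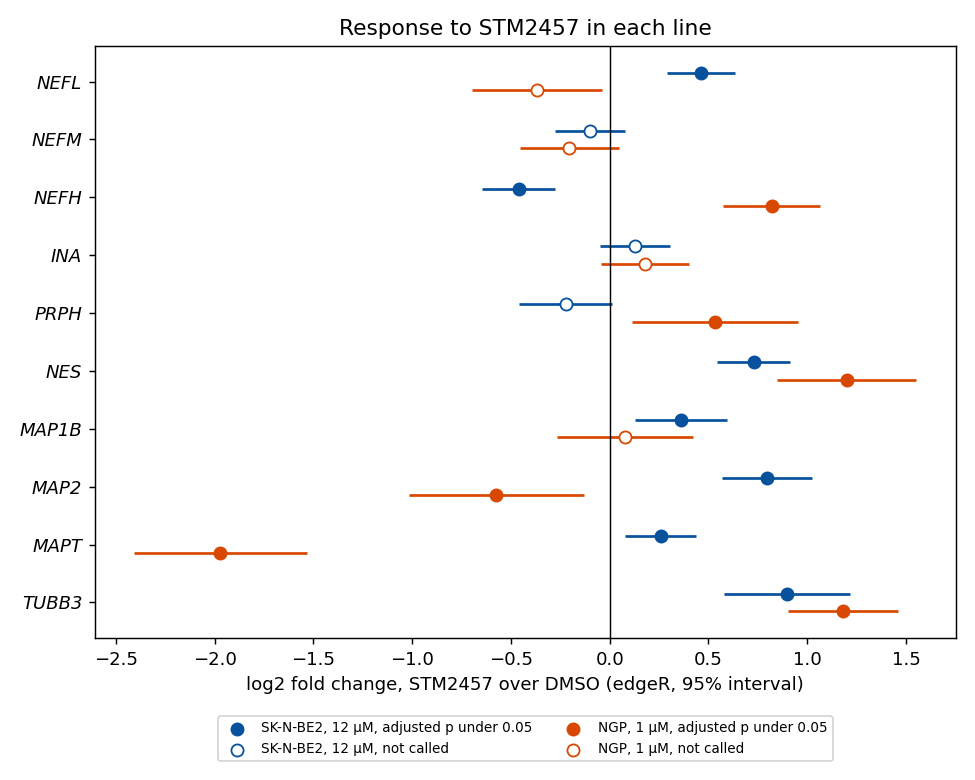
Log2 fold change of each gene with STM2457 over DMSO (x axis) in SK-N-BE2 (blue) and NGP (orange), with edgeR 95% intervals; filled points passed an adjusted p of 0.05. NES and TUBB3 lie right of zero in both lines, whereas NEFH, MAP2 and MAPT lie on opposite sides of zero in the 2 lines.

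The neurofilament subunits did not move together. NEFL, the light subunit that starts assembly (chromosome 8, 24950955 to 24957110, minus strand, GRCh38), measured 231, 229 and 211 CPM in the SK-N-BE2 DMSO libraries and 323, 317 and 306 CPM with STM2457. CPM is the read count scaled to library size, on a scale set over all 12 libraries. The groups did not overlap, and NEFL rose by 0.46 on the log2 scale (SE 0.08, edgeR adjusted p 0.000298), a 1.38-fold rise. In NGP, NEFL measured 60.9, 70.5 and 59.5 CPM with DMSO and 44.4, 59.4 and 43.9 CPM with STM2457. The NGP groups lay just apart and the change was not called (-0.37, 95% interval -0.69 to -0.04, edgeR adjusted p 0.0717). Without NGP DMSO replicate 1 it was -0.40 (edgeR adjusted p 0.029), and without STM2457 replicate 2 the adjusted p was 0.0234. Taken as SK-N-BE2 minus NGP, the responses of NEFL differed by 0.84 on the log2 scale (SE 0.16, edgeR adjusted p 0.001345).

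NEFH, the heavy subunit whose long tail spaces filaments in the axon (chromosome 22, 29480218 to 29491390, plus strand), went the opposite way. In SK-N-BE2 it measured 419.6, 389 and 443 CPM with DMSO and 318, 298 and 317 CPM with STM2457. Its NGP libraries had 329, 276 and 281 CPM with DMSO and 506, 562 and 495 CPM with STM2457. Neither pair of groups overlapped: every treated library lay below the controls in SK-N-BE2 and above them in NGP. The SK-N-BE2 libraries fell by 0.46 on the log2 scale (SE 0.08, edgeR adjusted p 0.000469), while the NGP libraries rose by 0.82 (SE 0.11, edgeR adjusted p 0.000571). The difference between the responses was -1.27 (SE 0.13, edgeR adjusted p 1.12e-05). Over all genes tested for that difference 30.9% were called, 17.0% higher and 13.9% lower, and among the 10 members 3 were called higher and 2 lower.

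NEFM, the medium subunit (chromosome 8, 24913758 to 24919098, plus strand), stayed within the spread of the replicates. In SK-N-BE2 it measured 397, 395 and 374 CPM with DMSO and 352, 383 and 381 CPM after treatment, and the groups overlapped. NGP gave 102, 103 and 85.2 CPM with DMSO and 82.9, 89.2 and 80.2 CPM with STM2457, again with overlap. The log2 fold changes were -0.10 (95% interval -0.28 to 0.08, edgeR adjusted p 0.326) and -0.20 (-0.46 to 0.05, edgeR adjusted p 0.172).

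INA, the internexin that assembles with the triplet (chromosome 10, 103277138 to 103290346, plus strand), did not pass the test in SK-N-BE2 or NGP. Its SK-N-BE2 libraries measured 425, 424 and 398 CPM with DMSO and 487, 463 and 449 CPM with STM2457. Those groups did not overlap, but the log2 fold change of 0.13 was not called (95% interval -0.05 to 0.31, edgeR adjusted p 0.201). The NGP values were 229, 232 and 260.0 CPM with DMSO and 270.2, 289 and 255 CPM with STM2457, which overlap (0.18, interval -0.04 to 0.40, edgeR adjusted p 0.176). The groups did not overlap for 8 of the 10 members in SK-N-BE2, against 62.2% of genes tested, and for 5 of 10 in NGP, against 54.7%.

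PRPH, the filament of peripheral neurons (chromosome 12, 49293252 to 49298686, plus strand), measured 305, 322 and 398 CPM in the SK-N-BE2 controls and 327, 272 and 301 CPM in the treated libraries. The groups overlapped and the change was not called (-0.22, 95% interval -0.46 to 0.01, edgeR adjusted p 0.101). Without SK-N-BE2 DMSO replicate 1 it was called (-0.30, edgeR adjusted p 0.0274). NGP libraries had 118, 71.6 and 89.4 CPM with DMSO and 130.1, 155 and 118 CPM with STM2457. DMSO replicate 1 was the highest control and lay level with the lowest treated library. The NGP rise of 0.53 (SE 0.18, edgeR adjusted p 0.0462) was no longer called in 5 of the 6 leave-one-out fits, with adjusted p up to 0.145. In the fit without DMSO replicate 1 it was 0.74 (edgeR adjusted p 0.000830). The difference between the responses was -0.74 (SE 0.23, edgeR adjusted p 0.0261), which 5 of 12 leave-one-out fits did not call (up to 0.0689).

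NES, the progenitor filament (chromosome 1, 156668763 to 156677407, minus strand), rose in both lines. In SK-N-BE2 it measured 304, 275 and 272 CPM with DMSO and 501, 458 and 489 CPM with STM2457. NGP libraries held 293, 217 and 191 CPM with DMSO and 527, 555 and 528 CPM with STM2457. In each line every treated library lay above every control, and NGP DMSO replicate 1 was the highest NGP control. Its change in SK-N-BE2 was 0.73 on the log2 scale (SE 0.09, edgeR adjusted p 1.14e-05) and in NGP 1.20 (SE 0.15, edgeR adjusted p 0.000524), a 2.30-fold rise there. Without NGP DMSO replicate 1 the NGP change was 1.40 (edgeR adjusted p 8.44e-07). The responses of the lines were not called different (-0.46, 95% interval -0.85 to -0.08, edgeR adjusted p 0.0658). Without NGP DMSO replicate 1 the difference was -0.68 and was called (edgeR adjusted p 0.000183).

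Some markers of mesenchymal neuroblastoma cells moved in NGP beside these filament changes. The summed level of 10 such markers ran from 185 to 238 CPM in NGP DMSO and from 688 to 736 CPM in NGP STM2457, with none of the 10 at 0 reads. Of the 7 markers tested there 4 were called higher and 3 were not called. FN1 (20.9 ± 4.49 to 309 ± 39.5 CPM) and VIM (48.3 ± 11.0 to 144 ± 4.02 CPM; SD, n = 3), both called higher, made up most of the rise in the sum. In SK-N-BE2 the sum ran from 911 to 1008 CPM with DMSO and from 874 to 948 CPM with STM2457. There 3 of 9 tested markers were called higher and 1 lower. Over all genes 26.9% were called higher and 27.8% lower in SK-N-BE2, and 19.4% higher in NGP. The part of these markers, which include the filament protein vimentin, in the NES and NEFH results was not tested. Markers of Schwann cells were near 0 throughout: their sum ran from 3.16 to 3.65 CPM with DMSO and 5.19 to 5.81 with STM2457 in SK-N-BE2, and from 2.70 to 3.58 and 0.853 to 1.02 in NGP. Other glial markers summed to at most 6.05 CPM in any library. CDH19 and FOXD3 were at 0 reads in SK-N-BE2 and MOG in all 12 libraries.

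**Figure D2:**
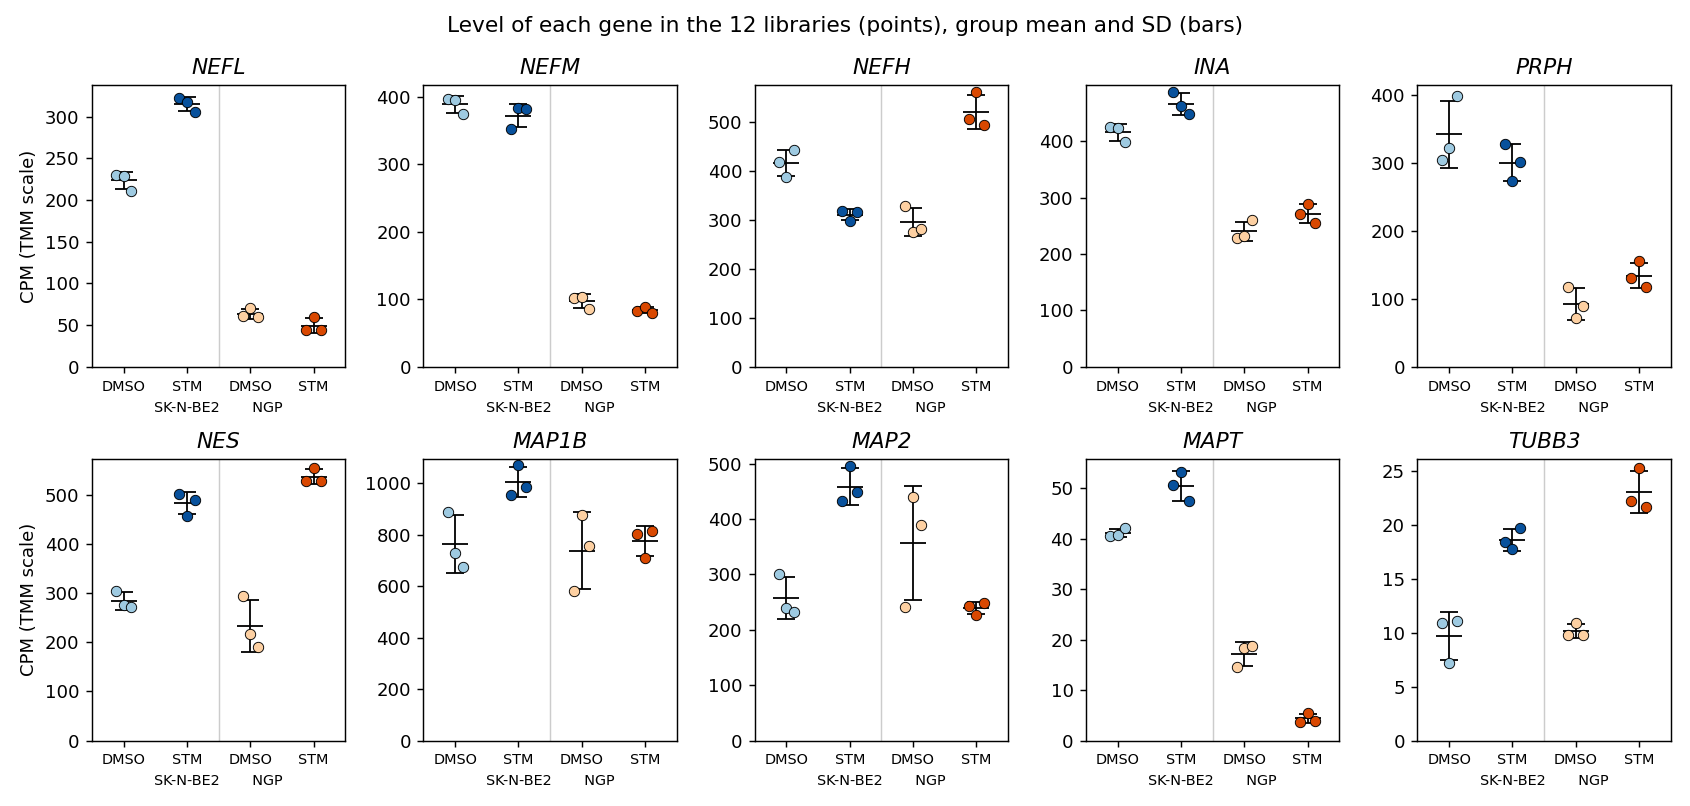
Level of each gene in CPM (y axis, starting at 0) in the 3 DMSO and 3 STM2457 libraries of each line; points are libraries and bars the mean and SD. NES and TUBB3 are higher with STM2457 in both lines, MAPT falls to between 3.73 and 5.51 CPM in treated NGP, and NGP DMSO replicate 1 is the low NGP control of MAP2 and MAP1B.

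The microtubule-associated proteins were called higher with STM2457 in SK-N-BE2 but not in NGP. Tau showed the largest change of the 10 genes. MAPT (chromosome 17, 45894382 to 46028334, plus strand) measured 14.5, 18.4 and 18.7 CPM in the NGP controls and 3.73, 5.51 and 3.92 CPM with STM2457. Every treated library lay far below every control, and MAPT fell by 1.97 on the log2 scale (SE 0.19, edgeR adjusted p 0.00013), a 3.92-fold drop. In SK-N-BE2 it measured 40.6, 40.6 and 42.1 CPM with DMSO and 50.7, 53.2 and 47.4 CPM with STM2457, without overlap. The rise there was 0.26 (SE 0.08, edgeR adjusted p 0.0182). It lost its call without STM2457 replicate 1 (adjusted p 0.0604) or 2 (0.0933) and in the fit of all 12 libraries together (0.0910). The difference between the responses was 2.24 (SE 0.20, edgeR adjusted p 2.98e-06).

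MAP2, the dendritic protein (chromosome 2, 209424058 to 209734118, plus strand), measured 299.8, 239.9 and 232 CPM in the SK-N-BE2 controls and 432, 495 and 449 CPM in the treated libraries. All treated libraries lay above all controls, and MAP2 rose by 0.80 on the log2 scale (SE 0.11, edgeR adjusted p 3.22e-05). NGP values were 242, 439.7 and 389.7 CPM with DMSO and 243, 227 and 248 CPM with STM2457. DMSO replicate 1 lay among the treated libraries and the other controls far above them. The NGP fall of 0.57 (SE 0.20, edgeR adjusted p 0.0437) was not called in 5 of 6 leave-one-out fits (adjusted p up to 0.143). Without DMSO replicate 1 it was -0.79 (edgeR adjusted p 1.74e-05). The difference between the responses, 1.38 (SE 0.24, edgeR adjusted p 0.000651), became 1.58 without that library.

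MAP1B, a microtubule stabiliser of growing axons (chromosome 5, 72107234 to 72209565, plus strand), was the gene with the most reads among the 10. In SK-N-BE2 it measured 888, 728 and 673 CPM with DMSO and 956, 1071 and 987 CPM after treatment, without overlap, and rose by 0.36 (SE 0.11, edgeR adjusted p 0.0125). That call was lost without DMSO replicate 3 (adjusted p 0.0534) or STM2457 replicate 2 (0.0683). The NGP libraries measured 581, 878 and 756 CPM with DMSO and 804, 710.3 and 816 CPM with STM2457. The treated libraries lay inside the range of the controls, and the change was not called (0.08, 95% interval -0.27 to 0.42, edgeR adjusted p 0.715). Leaving out NGP DMSO replicate 1, the lowest control, turned it to -0.07, still not called (edgeR adjusted p 0.51). The responses of the lines were not called different (0.30, interval -0.12 to 0.72, edgeR adjusted p 0.276). Without that library the difference was 0.42 and was called (edgeR adjusted p 0.0369).

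TUBB3, the neuronal beta-tubulin (chromosome 16, 89921392 to 89938761, plus strand), rose in both lines. The SK-N-BE2 controls measured 11.0, 7.17 and 11.1 CPM and the treated libraries 18.4, 17.8 and 19.8 CPM. Its values in NGP were 9.84, 10.9 and 9.82 CPM with DMSO and 22.2, 25.3 and 21.7 CPM with STM2457. No treated library overlapped the controls in either line. The log2 fold changes were 0.90 (SE 0.15, edgeR adjusted p 0.000198) and 1.18 (SE 0.12, edgeR adjusted p 0.000177). The difference between them was -0.27 (95% interval -0.73 to 0.19, edgeR adjusted p 0.365), and without SK-N-BE2 DMSO replicate 2, the lowest control, it was -0.47 and called (edgeR adjusted p 0.0388).

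The level of TUBB3 is a lower limit of the transcript. Of its 4430 exon bases, 35.8% are shared with AC092143.1, a counted gene that runs through TUBB3 and MC1R, and 95.8% of the 1350 coding bases of its canonical transcript lie in that shared part. A read that falls in exons of both genes is assigned to neither under the counting used, and AC092143.1 itself had 0 reads over the 12 libraries. Only 122 of the 1706 bases of the canonical TUBB3 transcript lie in exons of TUBB3 alone. The rise in both lines was thus read from exon bases that leave out most of the canonical transcript. Whether that transcript rose as much was not tested. The other 9 genes shared no exon base with another counted gene.

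Among the 10 genes, the largest differences between the lines with DMSO alone were in filament genes. SK-N-BE2 with DMSO was higher than NGP with DMSO in NEFM (389 ± 12.6 against 97.0 ± 10.2 CPM; SD, n = 3), PRPH (342 ± 49.6 against 93.0 ± 23.4) and NEFL (224 ± 10.6 against 63.6 ± 5.98). These log2 differences were 2.00, 1.88 and 1.81, with edgeR adjusted p from 1.29e-10 to 1.76e-07. Smaller differences in the same direction were those of MAPT (1.26), INA (0.79) and NEFH (0.50). MAP2 was lower in SK-N-BE2 (-0.47, edgeR adjusted p 0.0215), but not in 4 of the 12 leave-one-out fits (adjusted p up to 0.124). NES (0.28, adjusted p 0.0619), MAP1B (0.05) and TUBB3 (-0.06) were not called. NES was called without NGP DMSO replicate 1 (0.50, edgeR adjusted p 5.31e-05) or SK-N-BE2 DMSO replicate 3 (0.34, 0.0489). The 6 genes higher and 1 lower stand against 71.1% of all genes called in this comparison, 35.7% higher and 35.4% lower. Libraries of the lines did not overlap for 6 of the 10, against 68.9% of all genes.

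Levels of different genes were set side by side only per kilobase of exon. In SK-N-BE2 DMSO the order of mean level was INA (128 CPM per kilobase), NEFH (110), PRPH (107), NEFM (107), MAP1B (60.9), NEFL (51.6), NES (51.0), MAP2 (21.8), MAPT (2.76) and TUBB3 (2.20). NEFH, PRPH and NEFM overlapped in their libraries, as did NEFL and NES, and the other neighbours did not. The order of MAPT and TUBB3 depends on the length used: per kilobase of the exon bases it shares with no other counted gene, TUBB3 was above MAPT there (3.42 against 2.76) and overlapped it. In NGP DMSO it was NEFH (77.9), INA (73.9), MAP1B (58.9), NES (42.0), MAP2 (30.3), PRPH (29.2), NEFM (26.7), NEFL (14.7), TUBB3 (2.30) and MAPT (1.15). There NEFH overlapped INA, and each gene from MAP1B to PRPH overlapped the next. With STM2457, NES moved from rank 7 to rank 4 in SK-N-BE2 (86.7), where it overlapped PRPH and NEFH. In NGP it moved from rank 4 to rank 2 (96.4), below NEFH (137) and above INA (83.5) with no overlap. TUBB3, per kilobase of its full exon length, had group means of 2.20 to 5.21. Per kilobase of the canonical transcript PRPH was first in SK-N-BE2 DMSO at 189.8, above INA. By that length NES was at rank 5 in treated SK-N-BE2, below NEFL (88.0) and overlapping it, and at rank 5 in NGP DMSO.

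The shares of NEFH, NEFL and INA among the filament transcripts moved in opposite directions in the 2 lines. Of the summed level per kilobase of NEFL, NEFM, NEFH, INA and PRPH, NEFH held 21.8% ± 1.01 in SK-N-BE2 DMSO and 16.5% ± 0.400 with STM2457 (SD, n = 3). In NGP it held 35.0% ± 1.52 with DMSO and 46.2% ± 0.654 with STM2457. In SK-N-BE2 the NEFL share went from 10.3% ± 0.693 to 14.7% ± 0.364. In NGP it went from 6.64% ± 0.934 to 3.81% ± 0.380. INA went from 25.4% ± 1.44 to 29.0% ± 0.785 in the first line and from 33.3% ± 3.35 to 28.1% ± 0.592 in the other. None of these 6 pairs of groups overlapped, and the NEFM share in NGP, 12.0% ± 1.40 and 7.79% ± 0.183, did not overlap either. Each of these 7 had an exact two-sided permutation p of 0.1, the smallest that 3 against 3 libraries can give, and 0.15 adjusted over the 12 share tests, so no share could pass 0.05. The contrast of shares between the lines was not tested. A share also moves when the level of another subunit changes. The level of INA itself was not called in either line, with log2 fold changes of 0.13 and 0.18. In NGP the levels of NEFL and NEFM were not called either. The PRPH share overlapped between groups in both lines, and so did the NEFM share in SK-N-BE2.

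**Figure D3:**
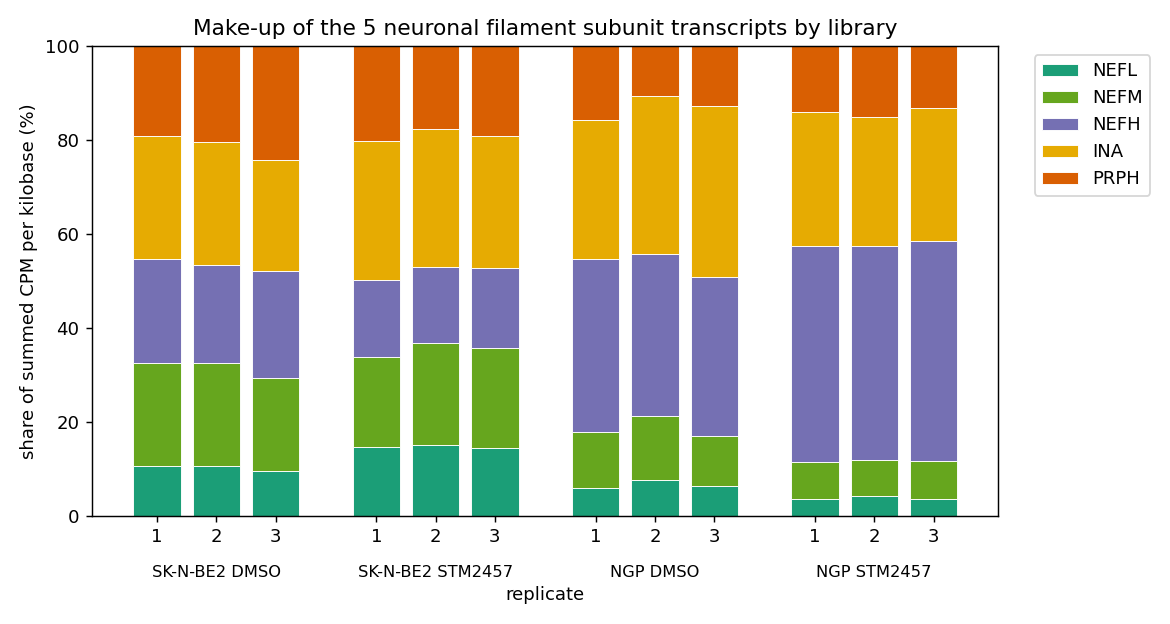
Share of each of the 5 neuronal filament subunits in their summed CPM per kilobase (y axis, percent) in each of the 12 libraries. The NEFH block is smaller with STM2457 in SK-N-BE2 (16.5% against 21.8%) and larger in NGP (46.2% against 35.0%).

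TUBB3 rose beside the rest of the tubulins. Over all genes 26.9% were called higher in SK-N-BE2 and 19.4% in NGP. Of the 14 other alpha- and beta-tubulin genes listed, which form the microtubule itself, 10 of 12 tested were called higher in SK-N-BE2 (median log2 fold change 1.00, against -0.02 over all genes) and 8 of 13 in NGP (median 0.88, against -0.03). TUBA1A went from 699.9 ± 82.4 to 2626 ± 107 CPM in SK-N-BE2, a log2 fold change of 1.87, and TUBA1B and TUBA1C rose there by 1.45 and 2.03. In NGP the beta-tubulin TUBB rose by 2.18 on the log2 scale, from 115 ± 24.6 to 518 ± 15.9 CPM (SD, n = 3), and TUBB4B and TUBA1C rose by 1.56 and 1.46. TUBA4A, named after its values were seen, was the 1 tubulin called lower in NGP (-1.66, at 3.84 ± 0.736 CPM with DMSO). TUBA1A, TUBA1B and TUBA1C are near-identical copies whose shared reads were not counted, so their values are uncertain. The part of TUBB3 in the level per kilobase of 10 beta-tubulins was 0.643% ± 0.170 and 0.626% ± 0.0495 in SK-N-BE2 (exact permutation p 0.9). In NGP it was 1.48% ± 0.223 and 1.25% ± 0.0637 (exact permutation p 0.1). Both shares carry the undercount of TUBB3.

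Other microtubule-associated proteins also differed between the lines. Of all genes, 26.9% were called higher and 27.8% lower in SK-N-BE2. In NGP those shares were 19.4% and 22.2%, and the numbers called in this list lay near them. In SK-N-BE2 13 of 26 were called higher and 4 lower (median 0.24), among them MAP1A, the mature partner of MAP1B (0.72), the doublecortin-like kinase DCLK2 (0.83) and the plus-end protein MAPRE2 (0.68). In NGP 4 of 24 were called higher and 5 lower (median -0.15), and without NGP DMSO replicate 1 the number lower was 11, while without STM2457 replicate 1 or 3 the number higher was 2. CAMSAP3, which caps microtubule minus ends, fell by 3.0 in NGP from 12.6 ± 1.92 to 1.56 ± 0.491 CPM (SD, n = 3). MAP6 and DCLK1 fell there by 1.32 and 1.08. The difference between the responses was called for 13 of the 26, 11 of them more positive in SK-N-BE2. Over all genes it was called for 30.9%, with 17.0% more positive in SK-N-BE2. The other 2 calls, more positive in NGP, became 1 without SK-N-BE2 STM2457 replicate 1, NGP DMSO replicate 2 or 3, or NGP STM2457 replicate 3.

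Motors that carry cargo along axonal microtubules were called higher in 11 of 19 cases in SK-N-BE2 (median 0.31), against 26.9% of all genes. KIF21A went from 149 ± 20 to 458 ± 31.7 CPM (log2 fold change 1.59), and KIF5C and the dynein intermediate chain DYNC1I2 rose by 0.77 and 0.58. That number was 7 without STM2457 replicate 1. In NGP 2 of 19 were called higher and 7 lower (median -0.01), against 19.4% and 22.2% of all genes. KIF1A fell by 0.86, from 1371 ± 36.4 to 752 ± 39.4 CPM (SD, n = 3), KLC2 by 0.67 and the adaptor MAPK8IP1 by 1.05. The number higher in NGP was 6 without DMSO replicate 1 and 1 without DMSO replicate 3 or any 1 of the STM2457 replicates.

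Kinases that phosphorylate tau and neurofilaments included TTBK1, a tau kinase that followed the direction of MAPT in each line. TTBK1 rose by 0.57 in SK-N-BE2 (39.1 ± 5.84 to 59.6 ± 2.00 CPM) and fell by 2.34 in NGP (19.3 ± 2.43 to 3.80 ± 0.709 CPM; SD, n = 3), a difference of 2.93 (SE 0.21, edgeR adjusted p 5.02e-07). Of 13 kinases and activators, 2 were called higher and 4 lower in SK-N-BE2 and 1 higher and 6 lower in NGP. For comparison, the SK-N-BE2 test called 26.9% of all genes higher and 27.8% lower. The NGP test called 19.4% of all genes higher and 22.2% lower. Whether the kinase list departed from these shares was not tested. GSK3B rose (0.53) and MARK4 fell (-0.51) in SK-N-BE2. CDK5 rose (0.85) in NGP while CDK5R2, one of its activators, fell (-0.91). Without NGP STM2457 replicate 1 or 3 the number lower in NGP was 3.

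Other intermediate filaments and the linkers that tie filaments to microtubules were called higher in 4 of 12 and lower in 5 of 12 in SK-N-BE2 (median -0.28), and higher in 4 of 10 in NGP (median 0.93). Of all genes, 26.9% were called higher and 27.8% lower in SK-N-BE2, and 19.4% higher in NGP. The number of these filaments and linkers lower in SK-N-BE2 was 3 without DMSO replicate 3 or STM2457 replicate 3. It was 2 without STM2457 replicate 2. The linker MACF1 rose in both lines (0.79 and 1.01), as did the filament protein SYNM (0.53 and 1.26), and the linker DST rose by 0.80 in SK-N-BE2. VIM fell by 0.24 in SK-N-BE2 and rose by 1.58 in NGP. KRT8, named after its values were seen and below 2.5 CPM in each group, had the most negative value in SK-N-BE2 (-3.42).

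Enzymes that modify or sever tubulin and the cofactors that fold it were the last lists examined. Of the 20 modifying and severing enzymes tested, 7 were called higher and 1 lower in SK-N-BE2, and 5 higher and 4 lower in NGP. The katanin KATNAL1 and the polyglutamylase TTLL4 rose (0.74 and 0.71) and TTLL1 fell (-0.87) in SK-N-BE2. In NGP the tubulin acetyltransferase ATAT1 rose (0.92), and the polyglutamylase TTLL11 (-1.72) and the katanin KATNA1 (-0.90) fell. The number lower in NGP was 8 without DMSO replicate 1 and 2 without any 1 of the STM2457 replicates. Of 20 folding proteins 5 were called higher and 5 lower in SK-N-BE2, and 4 higher and 1 lower in NGP. The SK-N-BE2 numbers of folding proteins, and the number higher in NGP, lay near the shares over all genes. TBCC, a cofactor of tubulin dimer assembly, fell in both lines (-1.12 and -1.05). TBCB and PFDN4 fell in SK-N-BE2 (-0.54 and -0.55), and TBCD rose in NGP (0.61), as did TBCA (0.51), which 5 of 6 leave-one-out fits did not call (edgeR adjusted p up to 0.0797). The folding counts were unsteady. In SK-N-BE2 the number higher was 3 without any 1 of the STM2457 replicates, and the number lower was 3 without STM2457 replicate 1. In NGP the counts were 7 higher and 3 lower without DMSO replicate 1. The number higher there was 1 without DMSO replicate 2 or 3 or STM2457 replicate 1 or 3 and 2 without STM2457 replicate 2, and the number lower was 2 without DMSO replicate 2.

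**Figure D4:**
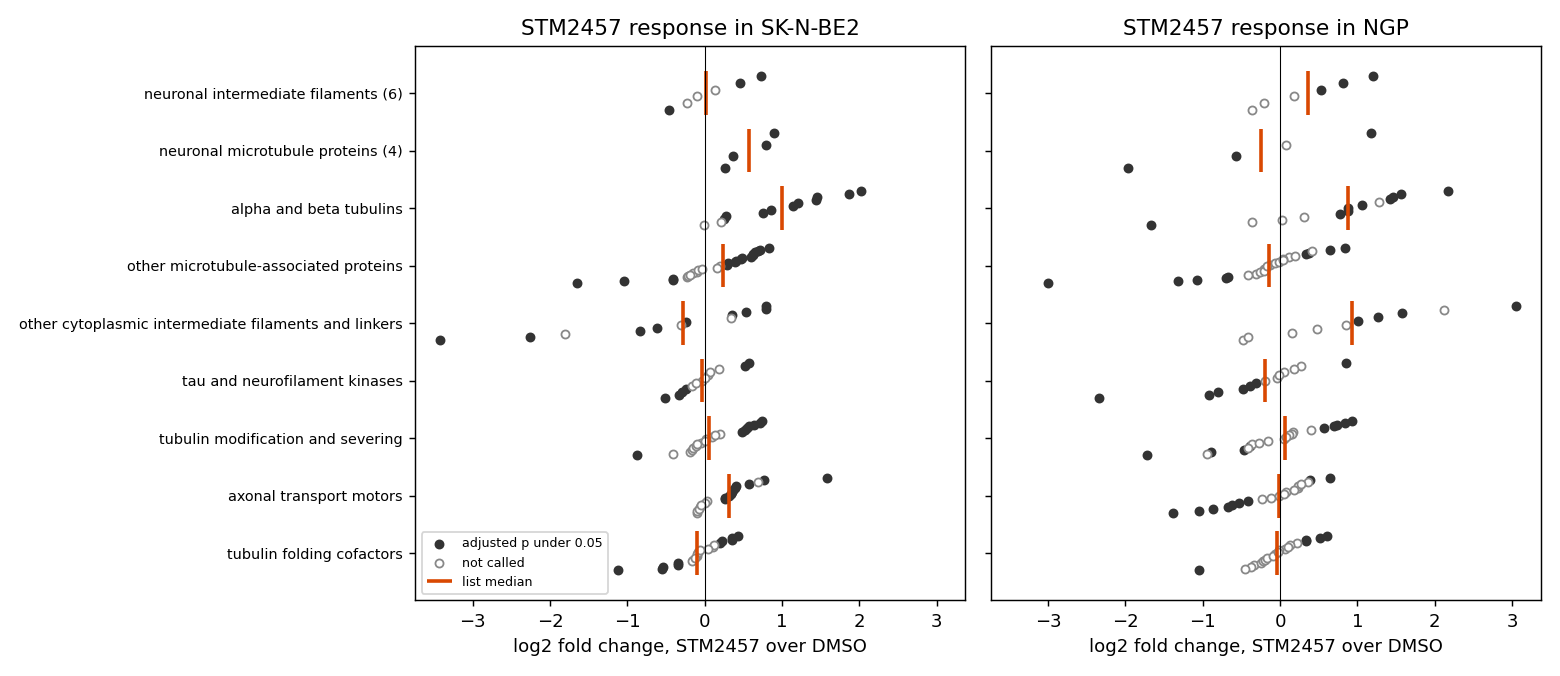
Log2 fold change with STM2457 (x axis) of every tested gene in the 2 groups of members and the 7 companion lists, for SK-N-BE2 (left) and NGP (right); filled points passed an adjusted p of 0.05 and bars are list medians. The tubulins sit to the right in both lines (medians 1.00 and 0.88), while the 4 neuronal microtubule genes have medians of 0.58 and -0.25.

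Among the members alone, the 4 microtubule genes had a median log2 fold change of 0.58 (SK-N-BE2) and -0.25 (NGP), against 0.01 and 0.36 for the 6 filament genes. Over all genes the medians were -0.02 and -0.03. The members were few and mixed in direction, so these medians describe the set and carry no test.

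Because the inhibitor blocks the m6A writer, the letters GGACT, the DNA form of a common m6A context, were counted in the GENCODE 44 canonical transcript of each gene. MAPT held 10, or 1.47 per kilobase, NEFM 4 (1.22), NEFH 4 (1.05), NES 5 (0.898), MAP1B 9 (0.763), MAP2 6 (0.622) and TUBB3 1 (0.586). INA and NEFL held 1 each (0.308 and 0.279) and PRPH held 0. Over 19675 genes the median was 0.923 per kilobase and 87.9% had at least 1 match. The letters say nothing of whether a site was methylated, which was not measured in these libraries.

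The genes whose log2 CPM ran most like 9 of the members over the 12 libraries were found among 10670 genes. They were SPIN3 for NEFM (Pearson r 0.998), DLX6 for NEFH (0.962), TCAIM for INA (0.992) and CORO1B for PRPH (0.993). For the others they were NELFCD for NES (0.980), CLCN5 for MAP1B (0.972), RC3H2 for MAP2 (0.966), MFSD6 for MAPT (0.992) and AC068831.8 for TUBB3 (0.981). The points fall into 2 lines and 4 groups, so these values mostly describe group levels.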

How the data were processed

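RNA was measured in 12 libraries, 3 per group, grouped by line and treatment from their titles. Per the labels' protocols, poly(A) RNA was made into SMART cDNA libraries. The authors deposited whole-number counts of reads per gene, not normalized. Per the file headers they came from featureCounts 2.0.5 on exons of GENCODE 33 protein-coding genes (GRCh38), unstranded, with multi-mapping reads not counted and pairs not counted as 1. The submitters' processing notes name FastQC 0.11.5, Trimmomatic 0.36, HISAT2 2.1.0 and Subread 1.5.3. Both reads of a pair can be counted: 72.1% to 75.4% of counts from 1 to 20 were even.

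The quasi-likelihood test of edgeR 4.0.16 (R 4.3.3) was run on the 6 libraries of a line, and on all 12 for the differences. Genes passed filterByExpr at a minimum count of 10, scaling was TMM, and p-values were adjusted by Benjamini-Hochberg over all genes at 0.05. TMM fixes no absolute amount, so changes are relative. Shares were compared by exact permutation. All 10 members were named, with up to 3 called genes of at least 10 CPM and without overlap per companion list and line. A few marker and similarity values are not reported here. Members and lists were chosen with earlier results of these data known. Alternatives were RLE and upper-quartile scaling, other filters, DESeq2 1.42.0, halved counts, a joint fit, a replicate block and leaving out each library. Simulated counts held 200 genes with a log2 fold change of 1. The fit found 100% of them for SK-N-BE2 (14016 genes), 95% for NGP (13616) and 77.5% for the difference (14486). False genes made up 3.38%, 5.47% and 4.91% of the calls. Far more genes were called in the data (54.7% in SK-N-BE2 and 41.7% in NGP), so these rates describe only the simulated setting. Depth was 47242379 to 58159937 reads per library, and the 3 libraries per group limit the precision of each mean.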

Additional observations from a re-analysis of the deposited data

Results flagged for a closer look

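The response to STM2457 differed between SK-N-BE2 and NGP, by the edgeR test of the difference itself, for 5 of the 10 genes. By the same test 30.9% of all genes were called. The log2 difference, SK-N-BE2 minus NGP, was 2.24 for MAPT, 1.38 for MAP2 and 0.84 for NEFL, and -1.27 for NEFH and -0.74 for PRPH. The calls of MAPT, MAP2, NEFL and NEFH held in all 12 fits that left out a library, and that of PRPH was lost in 5 of them (edgeR adjusted p up to 0.0689). Line, dose (12 and 1 µM) and sequencing run cannot be told apart in these differences.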

How the results depend on the processing

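The numbers of members called higher and lower stayed within 1.5 times under every scaling, filter, test, halved counts and joint fit. Leaving out 1 library gave 1 to 2 members lower in SK-N-BE2, 1 to 3 in NGP, 1 to 3 for the difference between responses and 0 to 1 between the DMSO groups. The signs that turned belonged to values not called: MAP1B in NGP (-0.0707 without DMSO replicate 1, range up to 0.218), INA in the difference (0.0137 without NGP STM2457 replicate 2, range from -0.0962), and, between the DMSO groups, MAP1B (-0.0449 without SK-N-BE2 and -0.0746 without NGP DMSO replicate 1, up to 0.195) and TUBB3 (0.139 without SK-N-BE2 DMSO replicate 2, from -0.141). The cause was not tested. Replicate numbers gave no sign of pairing the samples. The correlation of deviations ran from -0.268 to 0.161 for same-numbered libraries and from -0.508 to 0.455 for the others. So few libraries cannot exclude a pairing. With the replicate block, MAP2 in NGP was not called (edgeR adjusted p 0.0501), while NEFL in NGP (0.0477) and NES between the DMSO groups (0.0476) were. NEFL in NGP was also called in the joint fit (0.0246), and NES between the DMSO groups with DESeq2 size factors (0.0417), upper-quartile scaling (0.0303) and DESeq2 (0.0359). NES was called for the difference between responses with upper-quartile scaling (0.0382) and DESeq2 (0.0391).

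Counts given for the companion lists moved by over 1.5 times as follows. In SK-N-BE2 the motors called higher were 7 with upper-quartile scaling against 11, and the modifying enzymes called lower were 4 with that scaling and 2 with the filter of 1 CPM or halved counts, against 1. The other filaments called lower were 3 with the block or the joint fit, against 5. Folding proteins called higher were 3 with upper-quartile scaling or the block, and those called lower 3 with the joint fit, against 5 each. In NGP the kinases called higher were 2 and the motors called higher 4 with DESeq2, and 2 and 6 with the joint fit, against 1 and 2. Folding proteins called lower there were 2 with the joint fit, against 1. For the difference between responses, the other microtubule-associated proteins called more positive in NGP were 1 with the block, against 2, and the other filaments 2 with the filter of 1 CPM, against 5.

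For the shares, leaving out 1 library turned NEFM in SK-N-BE2 (range -1.19 to 0.266 points) and PRPH in NGP (-0.105 to 2.41), and TUBB3 among beta-tubulins in SK-N-BE2 (-0.114 to 0.0454), none of which was separated between groups. Shares of reads without length correction changed the NEFL difference in SK-N-BE2 to 5.35 points and that of TUBB3 in NGP to -0.566. Per kilobase of the canonical transcript, chosen after seeing the data, NEFH differed by -4.26 points in SK-N-BE2 and 10.03 in NGP. Depth is least for MAPT in treated NGP, with 176 to 262 reads per library. The level and the response of TUBB3 are limited by its shared exons.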
